A study of Mus musculus with 37 samples.

Results

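Mitochondrial protein import genes encode the translocases that carry nuclear-encoded proteins into mitochondria. The set holds 32 genes chosen by symbol, and all 32 were found among the 54752 mouse genes of the deposited tables. By role, 11 members belong to the outer membrane, 7 to the intermembrane space and 12 to the inner membrane and its motor. The other 2 are Tomm34, a cytosolic co-chaperone, and Timmdc1, a TIM-like protein of complex I assembly.

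Nearly all mitochondrial proteins are made in the cytosol and enter through the TOM complex of the outer membrane. Beta-barrel proteins are then inserted by the SAM complex, metabolite carriers are passed by small TIM chaperones to the TIM22 translocase, and proteins with a cleavable presequence go through TIM23 with the help of a matrix motor. Fully grown oocytes hold very large numbers of mitochondria and become transcriptionally silent before maturation.

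The study sequenced 37 single oocytes of C57BL/6 females aged 6 to 8 weeks in 2 batches, by Smart-seq2. All females received 5 IU of pregnant mare serum gonadotropin (PMSG). Batch A held 6 oocytes at the germinal vesicle (GV) stage, collected 48 h after PMSG, and 6 ovulated oocytes at metaphase II (MII), collected 15 h after 5 IU of human chorionic gonadotropin. Batch B held 10 GV oocytes and 15 oocytes at metaphase I (MI), which came from denuded GV oocytes cultured for 8 h in M16 medium. MI oocytes thus matured in culture and MII oocytes in the animal, and the 2 stages were never in 1 batch, so each was compared with the GV oocytes of its own batch. The sources used here do not say which oocytes came from the same female, so p-values measure the spread between these oocytes only.

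RSEM expected counts on genes ran from 7509875 to 13988444 per oocyte in batch A. In batch B they ran from 2709280, in MI oocyte 15, to 19390128. Mean depth did not differ detectably by stage in batch A (adjusted p = 0.571, two-sided exact permutation test) or in batch B (adjusted p = 0.993, two-sided permutation test). In MII oocyte 1, 29518 genes had at least 1 count, where the median over the 6 MII oocytes was 20264.5. MI oocytes 4, 8 and 9 had 0.648, 0.634 and 0.529 HTSeq counts per RSEM count, lower than the other oocytes. The 12 oocyte markers had counts in all oocytes, led by Gdf9 at a mean of 2823 CPM (counts scaled to library size) in GV oocytes of batch A.

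Levels were first set side by side per length, as TPM (transcript counts over transcript length, scaled to a common total), in GV oocytes of batch A (n = 6). In the TOM complex, Tomm22, the central receptor, had the highest mean level at 118 ± 29.3 TPM (SD), ahead of Tomm6, a small stabilizing subunit, at 77.7 ± 22.1 TPM and the channel Tomm40 at 35.1 ± 12.4 TPM. The receptor for carrier precursors, Tomm70a, was low at 2.20 ± 1.26 TPM. Tomm22 lay above Tomm70a in every oocyte, while the ranges of Tomm22 and Tomm6 overlapped.

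Among SAM genes, Mtx1 had 41.9 ± 13.6 TPM, Mtx2 32.4 ± 8.77 TPM and the beta-barrel core Samm50 3.43 TPM, with a highest oocyte at 5.93 TPM. Mtx1 and Mtx2, both metaxins, overlapped, and Samm50 lay under both. The TPM of Mtx1 includes the 495-base Mtx1-217, annotated as a retained intron, with 17.2% of the counts of the gene. Timm9, a hexamer-forming small TIM, had the highest mean of the intermembrane space on this scale at 372 ± 83.2 TPM. Its partner Timm10 was at 13.9 ± 5.71 TPM.

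In the inner membrane, the level of Pam16, a regulator of the import motor, was 346 ± 107 TPM, and that of Timm17a, a subunit of the TIM23 core, was 270 ± 55.8 TPM. The 565-base Timm17a-204, annotated as a retained intron, held 28.9% of the Timm17a counts. The 7280-base coding Timm17a-201 held 65.6%. Per length the short transcript weighs more, so this TPM is not a level of the coding mRNA alone. The channel subunit Timm23 had 176 ± 26.8 TPM and the matrix chaperone Hspa9 118 ± 35.6 TPM. For the TIM22 complex, Timm22 had 36.5 ± 10.4 TPM and its metazoan partner Timm29 4.89 ± 2.31 TPM. That order rests on RSEM and turned in HTSeq, which gave 11 to 57 counts of Timm22 and 76 to 270 of Timm29 in these oocytes. Inner membrane genes thus spanned a wide range of levels, with the ranges of Pam16 and Timm17a overlapping. Taken over exon length with gene counts, the mean levels of Timm9, Pam16 and Timm17a in the same oocytes were 93.4, 115 and 65.1 TPM. On that scale Timm8b, at 155 TPM, lay over Timm9, Mtx1 was at 15.2 TPM and Mtx2 at 31.5 TPM, and Tomm40, at 16.4 TPM, lay under Tomm7, at 28.7 TPM. Timm23, at 156 TPM, lay over Pam16 and over Hspa9, at 114 TPM, and Timm17a lay under all 3. The order of the mean levels thus turned with the length used in all 3 compartments. Over exon length, the ranges of Mtx1 and Mtx2 and those of Timm17a and Timm23 did not overlap. Those of the other pairs compared above on that scale did.

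The main question was whether outer and inner membrane translocases changed alike from GV to MII. At MII, 4 of the 9 outer membrane genes tested were called lower relative to the other mRNAs, against 6.32% of all genes. None of the 10 genes of the TIM23 translocase and its motor was called, and at that share nothing is read from the 0. With counts scaled to spike-ins, 8 of the 9 and 3 of the 10 were called lower, against 29.3% of all genes. Genes were tested with edgeR on RSEM counts scaled by the trimmed mean of M values (TMM), and called where the adjusted p was under 0.05 with a more than 2-fold difference. By this rule 5 of the 29 members tested were lower at MII, against 6.32% of all genes tested. None was higher (0 by edgeR, 0 by DESeq2 and 1 at an unadjusted p under 0.05), against 2.15% of all genes by edgeR and 2.11% by DESeq2. The 5 include Timm22, whose RSEM values at MII were known when the set was drawn up. Tomm5, a small TOM subunit, Tomm40l, a paralog of the channel, and Chchd4 did not pass the filter on low counts.

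By adjusted p alone, 8 members were lower (11.5% of all genes) and 1 was higher (9.06% of all genes). The members' median log2 fold change was -0.37, against 0.01 over the 12929 genes tested, and 22 of the 29 members had a negative value, as did 49.0% of all genes. These values are relative to the other mRNAs of an oocyte. Scaled to the ERCC spike-ins that batch A received, the median over all genes moved to -0.72, 29 of 29 members and 93.7% of all genes were negative, and 16 members were called lower, where 29.3% of all genes were. The same scaling changed the calls over all genes from 817 lower and 278 higher to 3788 lower and 131 higher, and without MII oocyte 1 the 278 became 163. The ERCC share of counts was 0.906% in GV and 1.19% in MII oocytes on average (adjusted p = 0.208, two-sided exact permutation test).

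**Figure D1:**
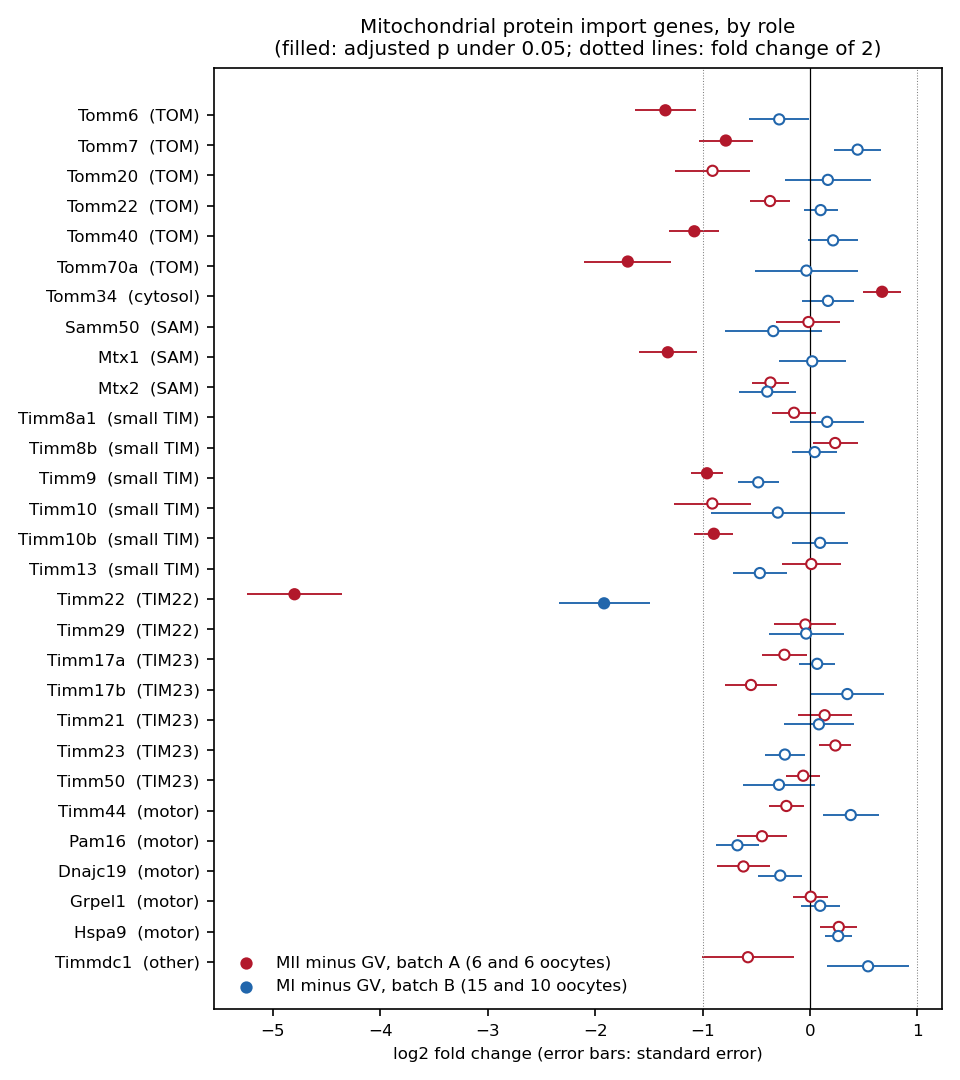
Log2 fold change of the 29 tested import genes with its standard error, ordered by role, for MII minus GV in batch A (red; 6 and 6 oocytes) and MI minus GV in batch B (blue; 15 and 10 oocytes), with filled points for an adjusted p under 0.05. Outer membrane genes lie mostly left of 0 at MII, TIM23 and motor genes lie on both sides of 0, from -0.62 to 0.27, and Timm22 stands far to the left; with ERCC scaling all 29 values at MII are negative, including that of Tomm34.

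Of the 9 outer membrane genes tested, 9 had a negative log2 fold change at MII, with a median of -0.91. Tomm70a ranged from 2.60 to 11.8 CPM in GV oocytes with a median of 6.53, and from 0.694 to 2.90 CPM in MII oocytes with a median of 2.24. All 6 MII oocytes lay under the GV mean and 4 lay under the lowest GV oocyte, so the groups overlapped in part. Its log2 fold change was -1.70 ± 0.41 (SE; adjusted p = 0.00837) and -1.55 in the HTSeq table (adjusted p = 0.0113). With all 37 oocytes and batch as a covariate the adjusted p of Tomm70a was 0.102, the highest over 19 alternatives, of which the lowest was 6.15e-05. These leave out the fit with the replicate number as a block, where it was 0.0599 and the call was lost as well.

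Tomm6 ranged from 20.8 to 40.1 CPM in GV oocytes with a median of 28.2, and from 6.33 to 22.5 CPM in MII oocytes with a median of 9.88. MII oocyte 2 alone reached into the GV range. The log2 fold change of Tomm6 was -1.35 ± 0.29 (SE; adjusted p = 0.00396), with all 6 MII oocytes under the GV mean. The HTSeq table held 0 counts of Tomm6 in all 12 oocytes of batch A. Of its exonic bases, 84.2% are also annotated as exons of Gm21981, Tomm6os or Usp49, and its RSEM value has no counterpart in that table.

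Tomm40, the pore of the complex, ranged from 14.6 to 38.6 CPM in GV oocytes with a median of 30.9, and from 11.2 to 14.7 CPM in MII oocytes with a median of 12.9. GV oocytes 1 and 2 were low, close to the MII oocytes, and the other 4 were clearly higher. The log2 fold change of Tomm40 was -1.08 ± 0.23 (SE; adjusted p = 0.00429), and -1.19 in the HTSeq table (adjusted p = 0.00242). Without GV oocyte 3 it was -0.96, under the fold threshold, with an adjusted p of 0.0125, in a range from 7.95e-06 to 0.0342 over 19 alternatives. With the replicate number as a block, not among these, it was -0.995, also under the fold threshold (adjusted p = 0.0201).

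Mtx1, which brings precursors to SAM from the cytosolic side, ranged from 10.9 to 31.9 CPM in GV oocytes with a median of 20.7. In MII oocytes it ranged from 4.86 to 11.2 CPM with a median of 8.09. The groups met at 1 MII and 1 GV oocyte. Its log2 fold change was -1.32 ± 0.27 (SE; adjusted p = 0.00286) and -1.15 in the HTSeq table (adjusted p = 0.00655), in a range from 1.99e-05 to 0.0486 over 19 alternatives. Antisense exons of Thbs3 and Gm43737 cover 30.1% of the exonic bases of Mtx1. The other SAM genes, Mtx2 and Samm50, had log2 fold changes of -0.37 and -0.01 and did not pass.

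Tomm7, a small regulatory subunit, passed by adjusted p alone. It ranged from 8.07 to 15.0 CPM in GV and from 4.04 to 10.0 CPM in MII oocytes, with medians of 11.8 and 7.04. Its log2 fold change was -0.78 ± 0.25 (SE; adjusted p = 0.0343), and 5 of 6 MII oocytes lay under the lowest GV oocyte. This call was lost without GV oocytes 1, 3, 4 or 5 or MII oocytes 1, 4 or 6, left out singly, with adjusted p from 0.0501 to 0.0801. Over 19 alternatives its adjusted p ran from 8.23e-05 to 0.127, and 10 kept the call. It was lost too with the replicate number as a block, which is not among these. The presequence receptor Tomm20, at -0.91, did not pass with edgeR (adjusted p = 0.0726) and passed with DESeq2 (0.0419). Tomm22 ranged from 46.4 to 92.3 CPM in GV and from 40.9 to 76.1 CPM in MII oocytes, which overlapped, with a log2 fold change of -0.37 ± 0.19 (SE; adjusted p = 0.176).

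Tomm34, which links cytosolic chaperones to precursor proteins, was the single member higher at MII by adjusted p alone. It ranged from 36.8 to 70.4 CPM in GV oocytes with a median of 53.5, and from 72.6 to 103 CPM in MII oocytes with a median of 81.3. All 6 MII oocytes lay over the highest GV oocyte, as they did for 4.03% of the 13260 genes with a mean of at least 1 CPM. The log2 fold change of Tomm34 was 0.67 ± 0.18 (SE; adjusted p = 0.0158) and 0.68 in the HTSeq table, but -0.03 with ERCC scaling (adjusted p = 0.912). With batch as a covariate over all 37 oocytes the adjusted p of Tomm34 was 0.115, and 16 of 19 alternatives kept the call (0.00299 to 0.912).

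**Figure D2:**
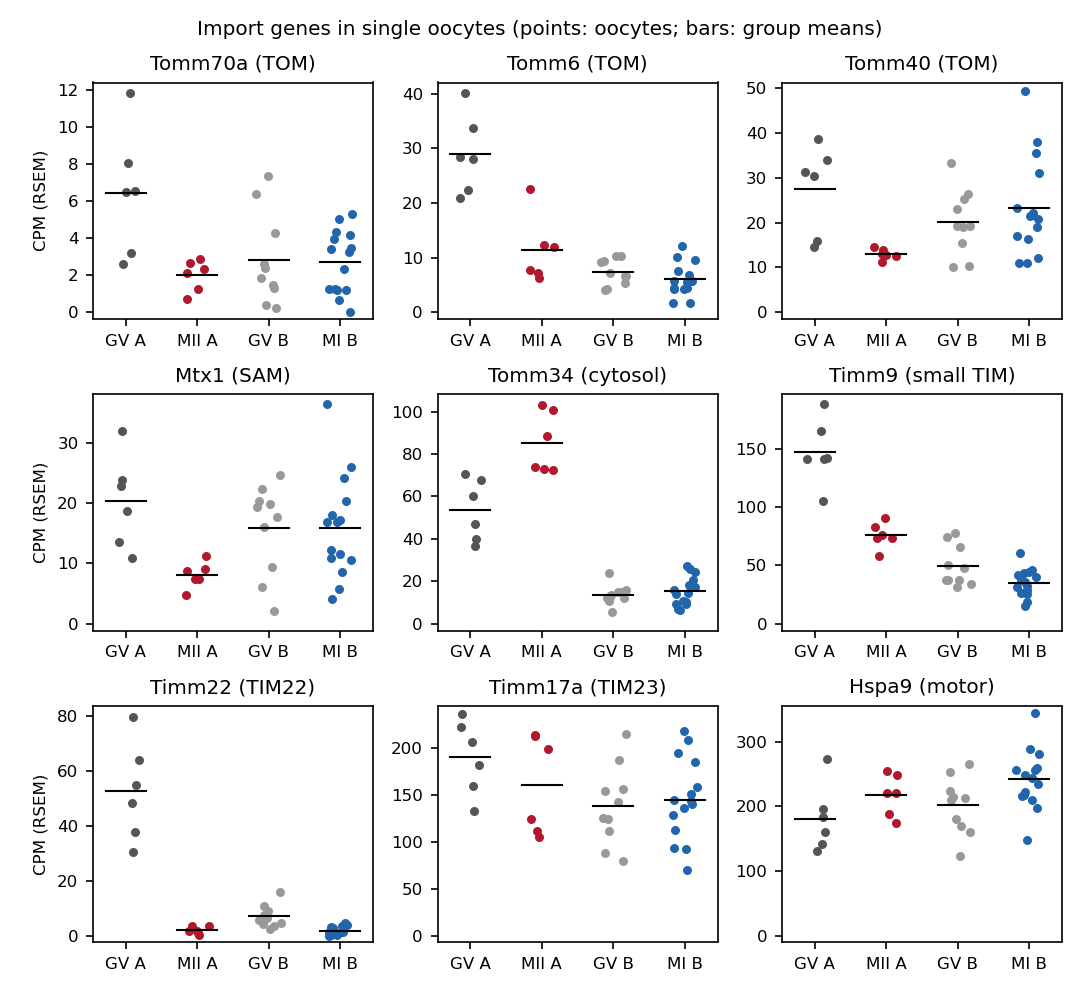
TMM-scaled CPM from RSEM counts of 9 import genes, 1 point per oocyte and a bar at each group mean, for GV and MII of batch A and GV and MI of batch B, scaled within each batch. Tomm70a, Tomm6, Tomm40, Mtx1, Timm9 and Timm22 lie lower at MII than at GV of the same batch, Tomm34 lies higher there with TMM but not with ERCC scaling (log2 fold change -0.03), and the stages overlap at least in part for Timm17a and Hspa9.

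Small TIM chaperones shield carrier precursors between the membranes, and 2 of the 6 tested were lower at MII by adjusted p, against 11.5% of all genes. None passed the fold threshold (0 by edgeR and 0 by DESeq2), and 3 were lower at an unadjusted p under 0.05, where 34.3% of all genes differed in either direction. Timm9 ranged from 105 to 188 CPM in GV oocytes with a median of 142, and from 57.9 to 90.4 CPM in MII oocytes with a median of 74.7. All MII oocytes lay under all GV oocytes. Its log2 fold change was -0.96 ± 0.15 (SE; adjusted p = 0.00047), and -0.97 in the HTSeq table. Such a gap between the stages was found for 2 members on the lower side at MII, Timm9 and Timm22, and for 5.59% of the 13260 genes with a mean of at least 1 CPM.

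Timm10b, a small TIM bound to TIM22, ranged from 27.3 to 54.7 CPM in GV and from 17.8 to 29.0 CPM in MII oocytes, with medians of 44.7 and 23.4. Its log2 fold change was -0.90 ± 0.18 (SE; adjusted p = 0.00278) in RSEM counts but -0.14 in HTSeq counts (adjusted p = 0.743). With batch as a covariate over all 37 oocytes the adjusted p of Timm10b was 0.110, and 17 of 19 alternatives kept the call (5.72e-05 to 0.743). Exons of other genes, among them Arfip2 on the opposite strand, cover 22.1% of its exonic bases. Timm10 had -0.91 (adjusted p = 0.0812), while Timm8a1, Timm8b and Timm13 lay between -0.15 and 0.23 with TMM and at -0.91, -0.53 and -0.62 with ERCC scaling. Chchd4, the oxidoreductase that folds small TIMs, had at most 30 expected counts per oocyte in batch A.

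No gene of the TIM23 translocase or its motor was called at MII (0 of 10 by edgeR and 0 of 10 by DESeq2), against 6.32% of all genes called lower by edgeR and 6.4% by DESeq2, so nothing is read from the 0. At an unadjusted p under 0.05, 2 of 10 were lower, where 34.3% of all genes differed in either direction. Their log2 fold changes ran from -0.62 for Dnajc19, a co-chaperone of the motor, to 0.27 for Hspa9 with TMM, which was -0.47 with ERCC scaling. Timm17b, the paralog of Timm17a, had -0.55 ± 0.24 (SE; adjusted p = 0.113). Timm17a ranged from 132 to 236 CPM in GV and from 105 to 213 CPM in MII oocytes, with medians of 194 and 162. Of the 6 MII oocytes, 3 lay under the lowest GV oocyte and 3 over the GV mean. For Timm17b, 4 MII oocytes lay under the lowest GV oocyte, as many as for Tomm70a.

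Pam16 ranged from 69.8 to 153 CPM in GV oocytes and from 46.0 to 112 CPM in MII oocytes, with medians of 93.0 and 74.0, and 3 MII oocytes lay under the lowest GV oocyte. Its log2 fold change was -0.45 ± 0.24 (SE; adjusted p = 0.191). The median of the 10 genes was -0.14 with TMM and -0.87 with ERCC scaling, where 10 of 10 were negative, against 93.7% of all genes, 3 were called lower, against 29.3%, and the median of all genes was -0.72. The receptor Timm50, the linker Timm21, the motor anchor Timm44 and the nucleotide exchange factor Grpel1 lay between -0.22 and 0.14 with TMM and were all negative with ERCC scaling. Timm23 shares 59.4% of its 31-base words with transcripts of other genes, chiefly Gm10273, and Pam16 shares 20.8% with Gm9803. Timmdc1 had a log2 fold change of -0.58 ± 0.42 (SE; adjusted p = 0.361).

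Summed over members, outer membrane genes had 184 to 287 CPM in GV oocytes of batch A and 114 to 187 CPM in MII oocytes, with medians of 210 and 131. Inner membrane genes without Timm22 had 638 to 825 CPM and 620 to 844 CPM, with medians of 750 and 721. The highest MII oocyte just passed the lowest GV oocyte in the outer membrane sums, and the inner membrane sums overlapped throughout. In batch B the outer membrane medians were both 112 CPM. Those of the inner membrane genes without Timm22 were 498 CPM in GV and 537 CPM in MI oocytes. Sums of the intermembrane space genes had medians of 256 and 166 CPM in batch A and of 94.2 and 81.9 CPM in batch B. The difference between outer and inner membrane genes was not tested, since members were chosen with results known.

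Timm22, the pore of the carrier translocase, lies on the plus strand of chr11:76406952-76416292 (GRCm38). Its RSEM values ranged from 30.5 to 79.6 CPM in GV oocytes of batch A with a median of 51.5, and from 0.173 to 3.63 CPM in MII oocytes with a median of 1.65. The groups lay far apart. The log2 fold change was -4.80 ± 0.44 (SE), given as a description because it was known beforehand. Its partner Timm29, at -0.04 ± 0.29 (SE; adjusted p = 0.935), showed no detectable difference.

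In batch B, which did not enter that description, Timm22 ranged from 2.28 to 16.0 CPM in GV oocytes with a median of 6.10. In MI oocytes it ranged from 0 to 4.53 CPM with a median of 1.33. All 15 MI oocytes lay under the GV mean and 9 lay under the lowest GV oocyte. Timm22 was the 1 member of 29 called lower at MI, with a log2 fold change of -1.92 ± 0.42 (SE; adjusted p = 0.0499), where 0.0322% of all genes were called lower. Nothing is read from this count, since Timm22 was singled out with earlier results of these data known.

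With relative log expression in place of TMM the adjusted p of Timm22 was 0.0515, and over 5 alternatives it ran from 0.00154 to that value. These leave out the fit with the replicate number as a block, where Timm22 had -2.13 with an adjusted p of 0.348 and was not called. No member was called higher at MI by edgeR or DESeq2, against 0.0886% and 0.862% of all genes by these tools, and at an unadjusted p under 0.05 there were 3 members lower and 2 higher, where 11.0% of all genes differed in either direction. By adjusted p alone the members' counts were also 1 and 0, against 0.0483% and 0.0966% of all genes. The members' median log2 fold change at MI was 0.04, with 13 of 29 negative. The 4 outer membrane genes called at MII, Tomm70a, Tomm6, Tomm40 and Mtx1, had -0.03, -0.29, 0.21 and 0.02 at MI.

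Beside the value of Timm22 at MI, 2 of 5 tested cumulus and granulosa markers were called lower there, against 0.0322% of all genes. These were Ccnd2 at -3.69 and Gja1 at -3.42 (adjusted p = 0.0174 for each by edgeR on RSEM counts, 0.528 and 0.263 on HTSeq counts). Has2, of the same list, had means of 0.951 CPM in GV and 2.14 CPM in MI oocytes. The 17 markers summed to a median of 27.4 CPM in GV and 22.5 CPM in MI oocytes, led by Cyp19a1 at means of 15.9 and 13.7 CPM. Amh, Foxl2, Gatm and Ptx3 were at 0 in both groups. Their part in the value of Timm22 was not tested.

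The difference in Timm22 was smaller in HTSeq counts. In batch A, HTSeq gave 11 to 57 counts in GV oocytes with a median of 15.5 and 0 to 25 counts in MII oocytes with a median of 12, while RSEM gave 338 to 719 and 2 to 37.1 expected counts. The GV and MII oocytes overlapped in HTSeq and not in RSEM. In HTSeq the log2 fold change was -0.90 ± 0.68 (SE). In batch B, HTSeq gave 0 counts in 4 of 10 GV and 8 of 15 MI oocytes, and Timm22 did not pass the low-count filter there.

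**Figure D3:**
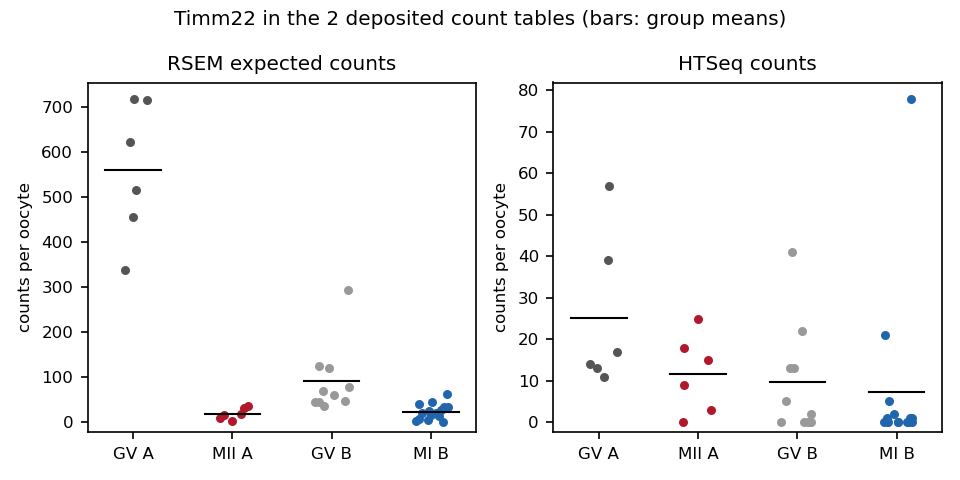
Timm22 counts per oocyte, not normalized, in the RSEM table (left) and the HTSeq table (right), 1 point per oocyte with a bar at each group mean. RSEM separates GV from MII in batch A (338 to 719 against 2 to 37.1 expected counts), and the HTSeq counts of the same oocytes overlap (11 to 57 against 0 to 25).

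Over all oocytes, Timm22 had 0.0896 HTSeq counts per RSEM count. The median ratio of the 13064 genes averaging 10 or more expected counts was 1.93, and 8.78% of them lay under Timm22. RSEM placed 99.9% of the Timm22 counts of GV oocytes in batch A on 1 transcript, Timm22-201. In its 3′-UTR, 82 bases at chr11:76414611-76414692 (GRCm38) also occur in transcripts of Ccdc36, Cnot3, Dennd4a, Ints9, Kif3a and St3gal1. No exon of another gene overlaps Timm22. Which reads RSEM assigned to it was not tested.

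With HTSeq counts, 3 of the 28 members tested were called lower at MII (Tomm70a, Tomm40 and Mtx1), against 5.04% of all genes. The outer membrane median was -0.93, and that of the inner membrane genes without Timm22 was 0.00, where RSEM gave -0.06. With ERCC scaling of RSEM counts these medians were -1.72 and -0.86.

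The difference between the change to MII and the change to MI was tested in 1 model of all 37 oocytes. Of 30 members tested, 2 were lower in that contrast by adjusted p, against 2.36% of all genes. Nothing is read from this count, since 1 of the 2 is Timm22 and the contrast holds its MII values, which were known beforehand. Timm22 had -2.80 ± 0.67 (SE) and Tomm7 had -1.15 ± 0.36 (SE; adjusted p = 0.0483). In batch B, Tomm7 ranged from 6.95 to 27.7 CPM in GV and from 9.28 to 31.5 CPM in MI oocytes, with medians of 14.2 and 19.2. The groups of batch B overlapped, and the log2 fold change of Tomm7 at MI was 0.44 ± 0.22 (SE; adjusted p = 0.448). Without MII oocyte 1 its adjusted p was 0.124, and without MI oocyte 15 it was 0.0551, both left out after seeing the data, while HTSeq counts without MI oocytes 4, 8 and 9, a setting also chosen after seeing the data, gave 0.0406. Timm22 had -0.65 in this contrast with that setting. Tomm40 did not pass at -1.22 ± 0.39 (SE; adjusted p = 0.0509), and passed with that setting (adjusted p = 0.0450), which gave 2 members against 1.41% of all genes. Without MII oocyte 1 the adjusted p of Tomm40 was 0.0955, and without MI oocyte 15 it was 0.0501. Batch and mode of maturation cannot be told apart from stage in this contrast.

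At the transcript level, 13 of the 49 member transcripts tested were called lower at MII, against 4.23% of all transcripts, and 1 of the 13 is Timm22-201, whose gene was known beforehand to be lower. Without MII oocyte 1, left out after seeing the data, 9 of 51 were, against 3.28% of all transcripts. The 13 came from Timm22, Tomm70a, Tomm6, Tomm40, Mtx1, Timm9, Timm10b and Timm13. Some share a gene and are not independent, and most of these genes were already lower at the gene level. These counts are thus not read as a result beyond the gene-level values. In Timm10b, the 694-base Timm10b-201 fell by 1.34 on the log2 scale (adjusted p = 0.00184), while the 3273-base Timm10b-203, with a longer 3′-UTR, had -0.30 (adjusted p = 0.499). The share of Timm10b-203 in the counts of its gene was 34.4% in GV and 52.5% in MII oocytes. Timm13-204 had -2.42 (adjusted p = 0.0444), and the main transcript Timm13-201 had 0.27. At MI, edgeR called 0 of 22717 transcripts, with 1615 at an unadjusted p under 0.05, and no other tool was run.

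Maturing oocytes extend the poly(A) tails of some mRNAs through U-rich elements near the 3′ end, so the last 100 bases of the annotated 3′-UTR of each member's most abundant transcript were searched on the transcribed strand. TTTTAT or TTTTAAT was found in 6 of 31 members, or 19.4%, and in the same window of 20.3% of 10565 genes averaging 10 or more expected counts. Pam16 was left out because its 3′-UTR is shorter, and TTTTAAT can overlap the polyadenylation signal AATAAA. The motif ATTTA was found in 25.8% of members and 23.8% of genes. The 3 members below held the first motif, with each match in capitals and 2 matches in Tomm6, and are shown because Tomm70a and Tomm6 were lower at MII and Tomm34 was higher with TMM but not with ERCC scaling.
Tomm70a, chr16:57156676-57156705, plus strand: aacaatTTTTAATaaaaagttttaaaagtg
Tomm6, chr17:47686708-47686737, minus strand: caggtaTTTTATtcTTTTAATaagaaactt
Tomm34, chr2:164053564-164053593, minus strand: aactgaTTTTATtgaagtgtgtgttgctgt
The pieces lie in the 3′-UTR (GRCm38), and a match describes the letters and not a site in use. Timm22, Tomm40, Mtx1 and Timm9 had none in this window.

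Related lists were counted in the same fits. Of 17 tested genes for presequence processing, insertion and folding, 4 were lower at MII by adjusted p (Oxa1l, Mipep, Mtch1 and Aifm1), against 11.5% of all genes, and 0 passed the fold rule by edgeR or DESeq2, with 7 lower and 2 higher at an unadjusted p under 0.05, where 34.3% of all genes differed in either direction. Of 25 tested carriers that are substrates of TIM22, 1 was lower (Slc25a26) and 1 higher (Slc25a32) by adjusted p, against 11.5% and 9.06% of all genes, with a median log2 fold change of 0.01. Of 7 cristae and bridging genes, 2 were lower by adjusted p (Chchd6 and Apoo), against the same 11.5%. At MI edgeR called 0 genes of these 3 lists. At an unadjusted p under 0.05, 2 genes of the first list were lower and 1 carrier was lower and 2 higher, where 11.0% of all genes differed, and DESeq2 called 1 of 22 carriers, Slc25a42, higher, against 0.862% of all genes by DESeq2.

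Markers were counted beside the members. Of the oocyte markers, 6 of 12 were called lower at MII, against 6.32% of all genes, with Zp3, Zp2, Zp1 and Npm2 at -2.21, -2.14, -1.39 and -1.24. At MI 0 of 12 were called by edgeR or DESeq2, with 3 lower at an unadjusted p under 0.05, where 11.0% of all genes differed. In batch A the sums of the cumulus and granulosa markers had medians of 36.7 CPM in GV and 25.3 CPM in MII oocytes. The means of Ccnd2 were 3.46 and 0.0690 CPM and those of Cyp11a1 2.50 and 0.494 CPM. Cyp19a1, which led the sums, had means of 16.1 and 17.5 CPM, and Lhcgr 0.374 and 0.855 CPM. Only 2 of the 17 passed the low-count filter there, and 0 were called by edgeR or DESeq2. Blood and immune markers summed to medians of 0.753 and 1.52 CPM there, led by Cd68, and of 5.20 and 3.31 CPM in batch B, led by Hbb-bs. MII oocyte 1 had 17.7 CPM of them and the other MII oocytes 0.784 to 2.43 CPM, and without MII oocyte 1 the members called lower at MII were 5 of 29, against 5.74% of all genes. Their part in the members' values was not tested.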

How the data were processed

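The authors trimmed reads with Trim Galore 0.6.4, aligned them to mm10 with STAR 2.7.6a and counted them against GENCODE models. They deposited raw HTSeq 0.12.4 counts per gene and RSEM 1.3.1 expected counts per gene and transcript. HTSeq strand and overlap settings are not given in the sources used here. Expected counts were rounded, ERCC spike-ins left out, and tested with edgeR 4.0.16 (TMM, filterByExpr, quasi-likelihood F-test, Benjamini-Hochberg adjustment over all features) within batch, with code tested on simulated data. DESeq2 1.42.0, other scalings, filters and models, HTSeq counts and left-out oocytes were alternatives. CPM were TMM-scaled within a batch, and TPM came from transcript expected counts over annotated length. Identifiers were matched without version to the GRCm38 annotation of GENCODE M21 (54723 of 54844, of which 92 are ERCC identifiers). Positions, exon lengths and 3′-UTRs thus come from a later GENCODE release than the one the authors counted against. Members and lists were chosen with earlier results of these data known. Values were given for members called at the fold rule, for Timm22, for the highest member of each role, and for further members singled out after their values were seen.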

Additional observations from a re-analysis of the deposited data

Results flagged for a closer look

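Among 87 combinations of a member and a group of 6 or 10 oocytes, 4 had 1 oocyte far from the others, and chance gives about 1 in 20. They were Tomm6 in MII oocyte 2 of batch A (22.5 CPM), Samm50 in GV oocyte 6 of batch A (10.9 CPM), Timm10 in MII oocyte 6 of batch A (5.20 CPM) and Timm23 in GV oocyte 7 of batch B (123 CPM). The change to MII and the change to MI differed for Tomm7, by -1.15 on the log2 scale, a call lost without MII oocyte 1 or without MI oocyte 15. For Timm22 the same contrast was -2.80 in RSEM counts, given as a description because it holds the MII values known beforehand. It was -0.65 in HTSeq counts without MI oocytes 4, 8 and 9, a setting chosen after seeing the data.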

How the results depend on the processing

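Counts of members called lower at MII were 5 with RSEM counts and TMM, against 6.32% of all genes, and 3 with HTSeq counts, against 5.04%. They were 16 with ERCC scaling, against 29.3%. With HTSeq counts and ERCC scaling together, a pairing of settings chosen after seeing the data, they were 13, against 28%. Without a fold threshold they were 8, against 11.5%, and 1 member was higher in place of 0, against 9.06%. Leaving out each oocyte of batch A gave 4 to 7 of 29 members lower and 0 higher. In the same fits 644 to 909 of all genes were lower and 163 to 337 higher, of 13093 to 13374 tested. At MI the 1 member called lower became 0 with relative log expression, with HTSeq counts, and with HTSeq counts without MI oocytes 4, 8 and 9.

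All genes called lower at MII were 817, and became 426 with batch as a covariate, 3788 with ERCC scaling, 3752 with HTSeq counts and ERCC scaling, and 1490 without a fold threshold. All genes called higher at MII were 278, and became 895 without the low-count filter, 101 with HTSeq counts, 131 with ERCC scaling, 22 with both and 1172 without a fold threshold. With 1 oocyte of batch A left out there were 644 to 909 lower and 163 to 337 higher, the 163 without MII oocyte 1. All genes called lower at MI were 4, and became 14 with DESeq2, 2 with relative log expression, 22 without the filter, 36 with the covariate and 0 with HTSeq counts, with or without MI oocytes 4, 8 and 9. All genes called higher at MI were 11, and became 107 with DESeq2, 18 without the filter, 71 with the covariate, 17 without MI oocyte 15 and 0 with HTSeq counts, with or without MI oocytes 4, 8 and 9.

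Tomm34 turned to -0.0334 at MII with ERCC scaling and to -0.0803 with ERCC scaling of HTSeq counts. Members whose change to MII differed from the change to MI were 2, with Timm22 known beforehand, against 2.36% of all genes lower in that contrast. Without MII oocyte 1 there was 1, against 1.52%, and without MI oocyte 15 also 1, against 2.56%. With HTSeq counts without MI oocytes 4, 8 and 9 there were 2, Tomm7 and Tomm40, against 1.41%. All 3 settings were chosen after seeing the data. Member transcripts called lower at MII were 13 of 49 (4.23% of all transcripts), 7 of 130 without the filter (0.902%) and 28 of 49 with ERCC scaling (18.8%). Timm9, Mtx1 and Tomm6 kept their calls at MII in 19 of 19, 19 of 19 and 17 of 17 alternatives other than the block. The 17 of Tomm6 leave out the settings with HTSeq counts, which were 0 for Tomm6 in batch A and could not test it. The causes were not tested.

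Replicate numbers of the labels did not pair the oocytes (correlations of same-numbered oocytes from -0.33 to 0.34 in batch A), and 1 of the 6 pairs there correlated best with its own number. With the replicate number as a block, 3 of 29 members were called lower at MII, as were 668 of 12929 genes. At MI, 0 members were called lower, and 0 genes were called lower and 0 higher. In the same way 2 member transcripts were called lower at MII, against 1.61% of all transcripts.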
